A study of Rattus norvegicus with 32 samples.

Results

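The conjugation enzymes of phase 2 were taken as every gene whose symbol in the platform's annotation names a glutathione S-transferase of the alpha, kappa, theta, mu, omega, pi or zeta class, a microsomal glutathione S-transferase, a UDP-glucuronosyltransferase or a sulfotransferase. The rule found 40 genes of 13437 with a single-gene probe set: 17 glutathione S-transferases, 3 microsomal glutathione S-transferases, 8 UDP-glucuronosyltransferases and 12 sulfotransferases. Each gene was read from its brightest probe set. Of the 40, 35 were bright enough to be tested; Gsta3l1, Gstm6l, Sult1d1, Sult6b2 and Ugt8 were not. Total liver RNA had been measured on 32 single-colour Affymetrix arrays from male Wistar Kyoto rats of 10 weeks and 250 to 300 g. Rats breathed filtered air, or ozone at 1 ppm, for 6 h per day. The harvests were the end of the exposure of day 1 (1day0hrs-Air, n = 6, and 1day0hrs-Ozone, n = 6), the end of the exposure of day 2 (2day0hrs-Air and 2day0hrs-Ozone, n = 5 each), and 18 h after the latter (2day18hrs-Air and 2day18hrs-Ozone, n = 5 each). All groups were of the same strain and sex. Nothing in the labels ties each array to its own animal, so p-values measure the spread between these samples, which may be technical.

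Conjugation makes lipophilic compounds and reactive electrophiles water soluble, so that bile or urine can carry them away. Glutathione S-transferases couple electrophiles to glutathione, UDP-glucuronosyltransferases transfer glucuronic acid from UDP-glucuronate, and sulfotransferases transfer sulfate from the activated donor PAPS. The liver is the main site of all these reactions, and there the enzymes also handle bile acids, bilirubin, steroids and thyroid hormones. Several of the genes are known targets of the oxidant-responsive factor Nrf2 and of the xenobiotic receptors.

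Whether ozone, which first meets the airway, was accompanied by changes of these enzymes in liver was asked at each harvest by setting ozone against air. A difference is given on the log2(intensity + 16) scale, where 1 unit is a doubling of bright signals and the change of dim ones is understated. A gene was called where limma's adjusted p, over the 11625 genes tested in that comparison, was under 0.05. Array medians lay between 147 and 161, and the 6 hepatocyte markers checked were above them on every array. Albumin, the brightest, lay between 12830 and 13347, and Tat, the dimmest and least steady, between 556 and 3036. A few arrays stood apart. The nonspecific-binding probes had medians of 54.3 (day 1 air replicate 2) and 66.1 (day 1 ozone replicate 3); on 30 arrays they ranged from 85.2 to 92.0. As deviations from each gene's mean over all arrays, 7 arrays correlated better, across genes, with the mean of another group than with the other arrays of their own. Day 2 air replicate 5 was nearer to day 2 ozone (0.60 against -0.52), day 2 ozone replicate 5 to 18 h ozone (0.66 against -0.25), and 18 h air replicate 1 to 18 h ozone (0.70 against 0.26). The other 4 were air arrays nearer to air of another harvest: day 1 air replicate 5, day 2 air replicates 1 and 2, and 18 h air replicate 5. The counts called on day 2 are given with and without replicate 5 of both day 2 groups, and without a set of 3 arrays that adds 18 h air replicate 5. A set of 4 adds 18 h air replicate 1 as well. Both sets were taken from earlier results of these data. The 3' to 5' ratio of the actin probes was 3.5 on 18 h ozone replicate 5 and 2.16 to 2.89 on the other 31 arrays.

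At the end of day 1, 14 of the 35 enzymes tested were called: 11 fell and 3 rose after ozone. Changes were moderate, from a fall of the theta-class transferase Gstt2 (log2 difference -0.80) to a rise of the mu-class transferase Gstm4 (0.37). The called share was 40% of the members, beside 29.5% of all genes tested, of which 13.1% were called higher and 16.4% lower. The median difference over the 35 members was -0.10, against 0.0045 over all genes. Of 15 glutathione S-transferases 5 fell and 1 rose, 1 microsomal transferase fell of 3, 3 UDP-glucuronosyltransferases fell of 7, and 2 sulfotransferases fell and 2 rose of 10. The family medians were -0.12, -0.10, -0.11 and -0.02 in that order. The calls of 8 members held under all 25 other settings and array sets tried for this comparison (Gstm4, Gsto1, Gstp3, Gstt2, Sult1a1, Sult1b1, Sult1c3 and Ugt2b1), and the other 6 lost theirs under at least 3. The count of 14 was 9 without day 1 air replicate 6 and 8 without day 1 ozone replicate 2. It was 9 without day 1 ozone replicate 3, and 9 without both arrays of low nonspecific signal. The share of all genes under these settings is not given here, so the counts do not set the members against other genes.

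**Figure D1:**
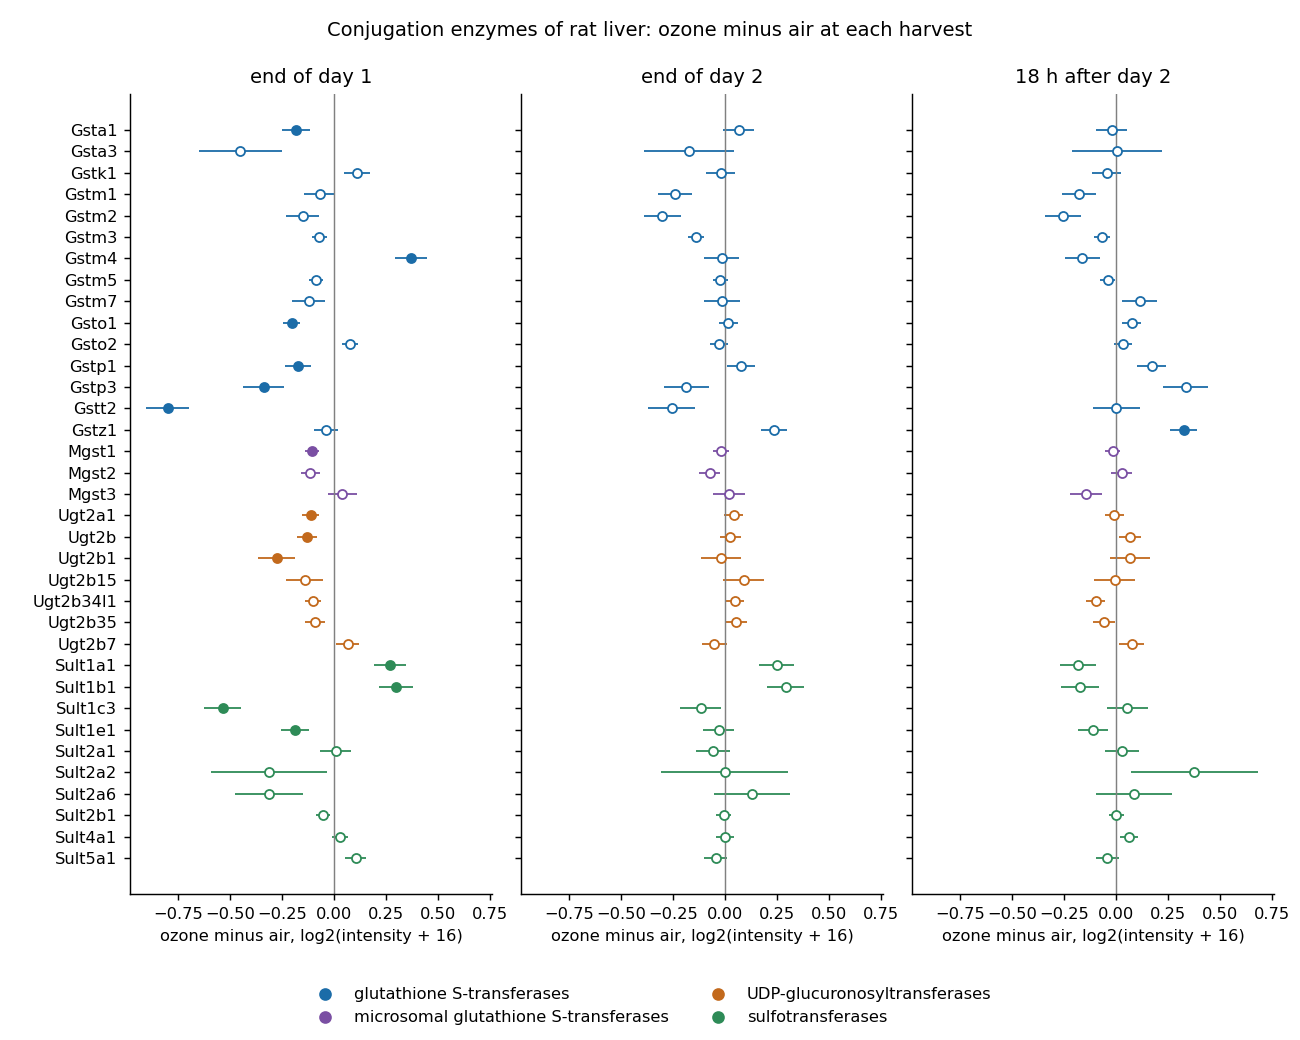
Ozone minus air difference in log2(intensity + 16) of the 35 enzymes tested, by family and harvest. Points are differences of group means with the standard error from limma as bars, and filled points passed adjusted p under 0.05: 14 at the end of day 1, 0 at the end of day 2, and Gstz1 alone 18 h later.

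Among the glutathione S-transferases, Gstt2 showed the largest difference of day 1. This theta-class enzyme acts on small electrophiles and organic hydroperoxides. Its intensity was 1525, 1616 and 1695 (lowest, median and highest) on the 6 air arrays and 855, 917 and 984 on the 6 ozone arrays. No ozone array came near an air array. The log2 difference was -0.80 (SE 0.10, fold 0.574, limma adjusted p = 8.86e-07). A dim second probe set of Gstt2 read 0.07 lower on the log2 scale (log2 difference -0.07, adjusted p = 0.385) and was not called, so the probe sets of this gene did not give the same call. A pair of probe sets shared by the theta-class genes Gstt1 and Gstt3 was not called either. Their log2 differences were -0.11 and -0.21 (limma adjusted p = 0.485 and 0.405).

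The pi-class genes Gstp1 and Gstp3 fell together on day 1. Gstp1, a classical marker of altered foci in rat liver, was dim and read 312 to 403 in air and 289 to 332 after ozone. Gstp3 read 3777, 4317 and 4676 (lowest, median and highest) in air and 3002, 3434 and 3782 after ozone. The ranges of Gstp3 met at their edges, with the highest ozone array just above the lowest air array. Its log2 difference was -0.34 (SE 0.10, adjusted p = 0.00889), and that of Gstp1 was -0.17 (SE 0.06, adjusted p = 0.0384). The call of Gstp1 was lost under 10 of 25 settings and array sets.

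Gsto1, the omega-class enzyme that reduces dehydroascorbate and methylated arsenic, fell by 0.20 on the log2 scale (SE 0.04, adjusted p = 0.000323). It read 2244 to 2428 in air and 1881 to 2127 after ozone, with no overlap between the arrays. Its neighbour Gsto2 was dim and was not called (log2 difference 0.08, adjusted p = 0.149). Gsta1, an alpha-class enzyme that reduces lipid hydroperoxides and binds bilirubin and bile acids, fell by 0.18 (adjusted p = 0.0448). The air arrays of Gsta1 were tight at 5403 to 5950 and the ozone arrays spread from 4313 to 6027. A probe set shared by Gsta2 and Gsta5, which belongs to no single gene, also fell (log2 difference -0.22, adjusted p = 0.0397). The probe set of Gsta4, outside the members, was not called (log2 difference -0.15, adjusted p = 0.0875). Probe sets of several genes were tested with all annotated probe sets taken singly, of which 28.2% were called on day 1, 0.566% on day 2 and 1.03% at 18 h.

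Gstm4 was the only glutathione S-transferase called higher on day 1. It read 305, 328 and 344 in air and 377, 430 and 518 after ozone (lowest, median and highest), and every ozone array was above every air array. The log2 difference was 0.37 (SE 0.08, fold 1.29, adjusted p = 0.00037). The other mu-class genes tested lie in the same cluster on chromosome 2 and had negative, uncalled differences. These were -0.07 for Gstm1, -0.15 for Gstm2, -0.07 for Gstm3, -0.09 for Gstm5 and -0.12 for Gstm7. Mu-class paralogs are alike in sequence, so cross-hybridisation between them was not tested. The kappa-class Gstk1, an enzyme of mitochondria and peroxisomes, stood at 0.11 and the zeta-class Gstz1 at -0.04, both uncalled. Gsta3 had a difference of -0.45 and did not pass (adjusted p = 0.0887), and its arrays spread from 335 to 617 in air and from 243 to 436 after ozone.

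The microsomal transferases sit in the membrane of the endoplasmic reticulum. Mgst1, which protects membranes from lipid peroxidation, read 8742, 9061 and 9262 in air and 8089, 8358 and 8890 after ozone (lowest, median and highest). All 6 ozone arrays lay below the air mean, and the log2 difference was -0.10 (adjusted p = 0.0209). Mgst2 stood at -0.12 (adjusted p = 0.057) and Mgst3 at 0.04; neither was called.

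Sulfotransferases moved in both directions. Sult1c3 read 4854, 5182 and 5329 in air and 3168, 3560 and 4057 after ozone (lowest, median and highest), with a clear gap between the groups. The log2 difference was -0.54 (SE 0.09, fold 0.69, adjusted p = 3.04e-05). A further 3 probe sets, each shared by Sult1c2 and Sult1c2a and so outside the 40 genes, also fell. Their medians were 1709, 249 and 165 in air against 904, 143 and 109 after ozone, and their log2 differences were -0.87, -0.77 and -0.64 (adjusted p = 2.41e-06, 0.00054 and 0.000325). On none of them did an ozone array reach an air array. Sult1e1, the oestrogen sulfotransferase, read 6692 to 7757 in air and 5776 to 7128 after ozone, and its log2 difference was -0.19 (adjusted p = 0.0361).

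Sult1a1 and Sult1b1 rose on day 1. Sult1a1, which sulfates simple phenols, read 3938, 4153 and 4730 in air and 4691, 5131 and 5499 after ozone. Sult1b1, which acts on thyroid hormones and phenols, read 4455, 4967 and 5335 in air and 5344, 6191 and 6697 after ozone. The ozone arrays of Sult1b1 all exceeded the air arrays, while the lowest ozone array of Sult1a1 fell just below the highest air array. The log2 differences were 0.27 (SE 0.08, adjusted p = 0.00846) for Sult1a1 and 0.30 (SE 0.08, adjusted p = 0.00562) for Sult1b1. The hydroxysteroid sulfotransferases, which act on bile acids and dehydroepiandrosterone, were not called. Sult2a2 (-0.31, SE 0.28) and Sult2a6 (-0.31, SE 0.17) varied widely between arrays of one group, and Sult2a1 stood at 0.01. Sult2b1, Sult4a1 and Sult5a1, all dim, stood at -0.05, 0.03 and 0.10. A dimmer second probe set of Sult2b1 was called lower, by a log2 difference of -0.07 (adjusted p = 0.0403).

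Of the UDP-glucuronosyltransferases, Ugt2b1 fell most on day 1. It read 1856, 2261 and 2334 in air and 1607, 1829 and 2012 after ozone (lowest, median and highest), and 1 air array lay within the ozone range. The log2 difference was -0.28 (SE 0.09, adjusted p = 0.017). Ugt2b (-0.13, adjusted p = 0.0338) and Ugt2a1 (-0.11, adjusted p = 0.0369), a gene best known from olfactory epithelium, were also called, though each lost its call under 12 of 25 settings. Ugt2b15 (-0.14), Ugt2b34l1 (-0.10), Ugt2b35 (-0.09) and Ugt2b7 (0.07) were not called. Ugt2b15 and Ugt2b35 were bright, at 3625 to 4664 and 5028 to 5624 in air against 3034 to 4371 and 4422 to 5225 after ozone, and their ranges overlapped. The Ugt1a forms, which include the bilirubin-conjugating enzyme, share their last exons and were read only by a pair of joint probe sets; neither was called (log2 differences -0.08 and -0.15).

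**Figure D2:**
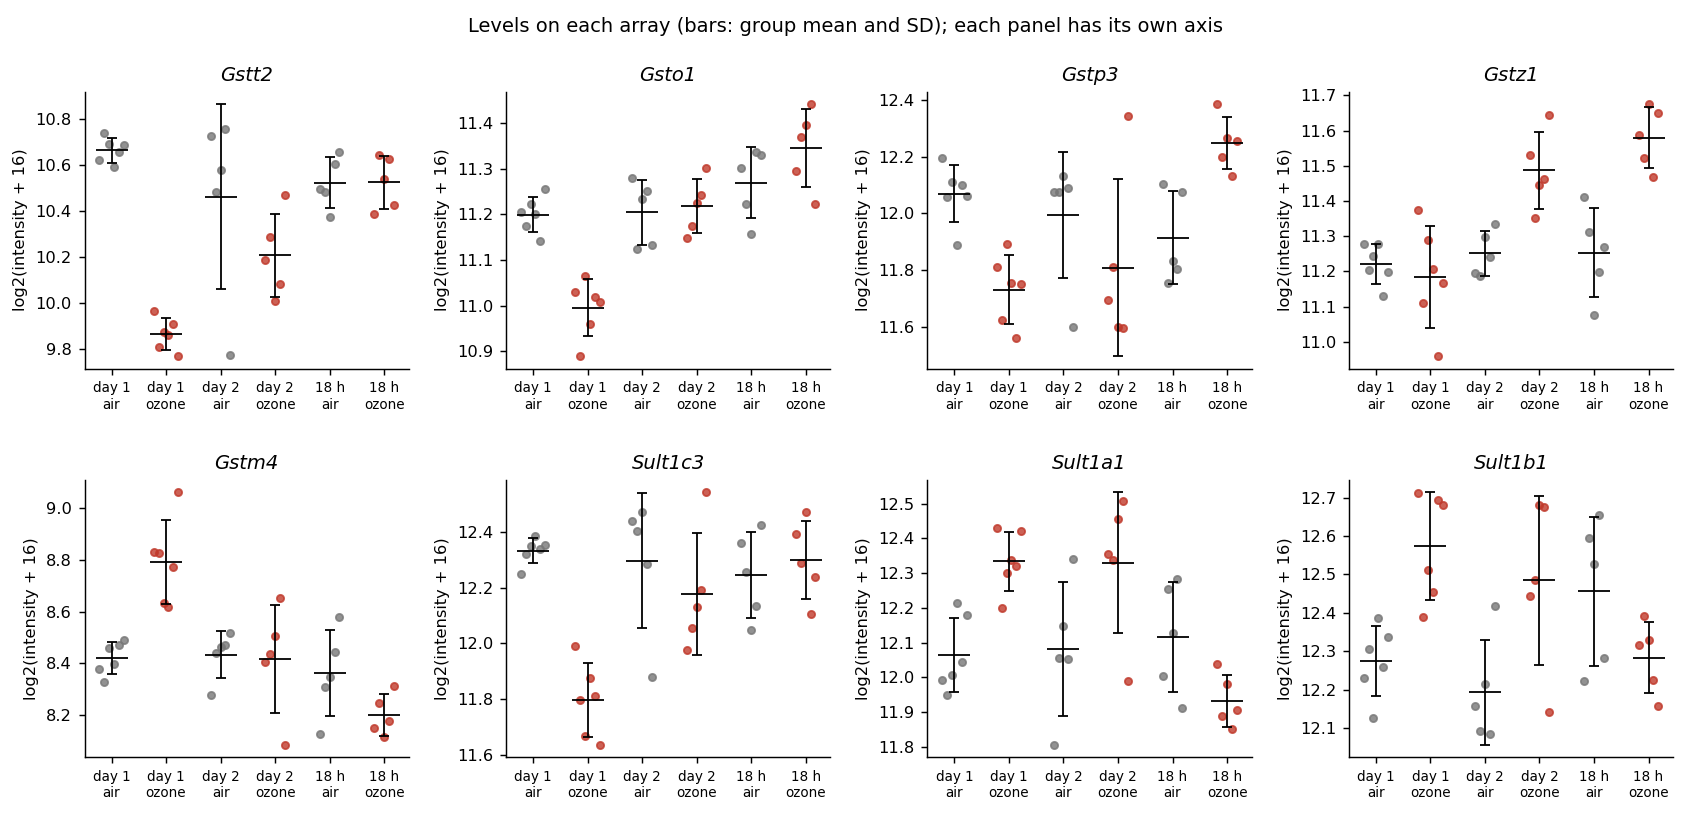
Level of 8 enzymes on each of the 32 arrays, in log2(intensity + 16), by group; grey points are air and red points ozone arrays, and black bars are group means with SD. Ozone and air arrays of day 1 did not overlap for Gstt2, Gsto1, Gstm4, Sult1c3 and Sult1b1; at day 2 air replicate 5 of Gstt2 and Gstp3 and ozone replicate 5 of Gstp3 lay far from their groups.

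The promoters of these genes were read for letters that known factors bind, as a description only. RefSeq's GRCr8 table held 37 windows for 34 of the 40 genes, and none for Gstm6l, Gstt2, Mgst2, Sult1e1, Sult4a1 and Ugt2a1. Windows were limited to the 250 bases before the start, and both strands were searched. The antioxidant response element core TGACNNNGC was in 13.5% of the member windows (Gsta3, Gstm5, Gstm7, Gstp1 and Gstz1) and in 10.1% of all 33469 windows. The glucocorticoid receptor core AGAACA was in 18.9% and 17.5%, and the dioxin response element core GCGTG in 27.0% and 25.9%. The nuclear receptor core AGGTCA was in 5.41% and 14.1%, the HNF1 core GTTAAT in 8.11% and 6.45%, the E-box CACGTG in 2.7% and 5.59%, and the D-box TTANGTAA in 0 of 37 windows and 2.04%. Matches of different motifs were counted separately even where they overlap. No result rests on these windows. Those of 5 members described here are printed to show what was searched: both pi-class genes, which fell together on day 1, Sult1c3 and Sult1a1, which moved in opposite directions while both holding AGAACA, and Gstz1, called 18 h after day 2. Capitals mark TGACNNNGC and AGAACA on either strand; in Gstz1 the match reads GCCCCGTCA, on the opposite strand.
Gstp1 (chr1:210769706-210769955, minus strand): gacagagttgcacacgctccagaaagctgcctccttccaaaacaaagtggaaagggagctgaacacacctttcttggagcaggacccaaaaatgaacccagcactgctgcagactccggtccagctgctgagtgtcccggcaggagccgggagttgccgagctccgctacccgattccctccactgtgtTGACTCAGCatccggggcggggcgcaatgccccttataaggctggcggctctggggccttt
Gstp3 (chr1:210787685-210787934, minus strand): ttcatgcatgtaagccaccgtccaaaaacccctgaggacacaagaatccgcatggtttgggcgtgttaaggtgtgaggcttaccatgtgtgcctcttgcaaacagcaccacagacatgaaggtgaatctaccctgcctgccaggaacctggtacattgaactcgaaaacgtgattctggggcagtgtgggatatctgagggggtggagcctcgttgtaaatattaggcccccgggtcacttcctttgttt
Sult1c3 (chr9:7594257-7594506, minus strand): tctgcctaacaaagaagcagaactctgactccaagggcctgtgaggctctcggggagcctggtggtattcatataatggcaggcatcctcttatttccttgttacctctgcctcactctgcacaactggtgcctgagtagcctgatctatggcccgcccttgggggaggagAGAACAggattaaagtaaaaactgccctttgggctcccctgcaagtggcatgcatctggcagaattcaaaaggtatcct
Sult1a1 (chr1:190706113-190706362, minus strand): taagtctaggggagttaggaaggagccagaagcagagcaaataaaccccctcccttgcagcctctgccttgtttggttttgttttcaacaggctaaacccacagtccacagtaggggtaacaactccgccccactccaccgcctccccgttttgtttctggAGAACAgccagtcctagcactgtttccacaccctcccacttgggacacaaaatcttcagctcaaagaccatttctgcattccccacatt
Gstz1 (chr6:112525356-112525605, plus strand): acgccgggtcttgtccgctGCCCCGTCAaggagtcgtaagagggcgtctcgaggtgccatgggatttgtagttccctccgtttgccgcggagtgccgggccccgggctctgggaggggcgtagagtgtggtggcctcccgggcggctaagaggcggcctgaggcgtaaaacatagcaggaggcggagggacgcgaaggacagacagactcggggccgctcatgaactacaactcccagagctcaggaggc

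Gstp1 holds the antioxidant core as TGACTCAGC, beginning at position -61 from the start, and Gstp3 has no match in its window. In Sult1a1 and Sult1c3 the letters AGAACA begin at positions -89 and -79. Among the 5 genes with the antioxidant core, Gstp1 fell on day 1, and Gsta3, Gstm5, Gstm7 and Gstz1 were not called. Of the 7 genes with AGAACA (Gstm1, Mgst3, Sult1a1, Sult1c3, Sult2a2, Sult2a6 and Ugt2b35), Sult1a1 rose on day 1, Sult1c3 fell and the other 5 were not called.

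At the end of day 2, none of the 35 enzymes was called by limma, beside 0.705% of all genes. Without adjustment, 7 members had p under 0.05. The members' differences ran from -0.30 (Gstm2) to 0.29 (Sult1b1), with a median of -0.02. This result rested on few arrays. Without day 2 air replicate 5, 7 members were called beside 8.4% of all genes, and without day 2 ozone replicate 5, 5 were beside 4.35%. Without these and air replicate 5 of 18 h, 3 of the 7 arrays nearer another group, 9 members were called beside 13.2% of all genes. With arrays weighted by quality 9 were called as well, and the share of all genes under weights is not given here. Leaving out arrays because they were nearer another group widens the gap between groups by construction.

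The intensities show where those arrays lay. Gstt2 read 858, 1414, 1512, 1680 and 1717 in day 2 air and 1014, 1068, 1150, 1234 and 1401 in day 2 ozone. Its lowest air array, replicate 5, was below every ozone array, while the other 4 air arrays were above all of them. The log2 difference was -0.26 (SE 0.11, adjusted p = 0.302) with all arrays and -0.49 (adjusted p = 9.39e-06) without the 3 arrays. Gstp3 read 3082, 4300, 4305, 4343 and 4477 in air and 3072, 3082, 3300, 3571 and 5185 after ozone. Here the lowest air array and the highest ozone array were replicate 5 of their groups. Its log2 difference was -0.19 (adjusted p = 0.508) with all arrays and -0.42 (adjusted p = 0.000164) without the 3.

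Sult1a1 read 3567, 4235, 4242, 4525 and 5177 in day 2 air and 4053, 5159, 5223, 5607 and 5814 in day 2 ozone. Sult1b1 read 4323, 4352, 4554, 4736 and 5461 in air and 4499, 5559, 5716, 6530 and 6544 after ozone. In both genes 4 of 5 ozone arrays were above the air mean. The log2 differences, 0.25 for Sult1a1 (adjusted p = 0.144) and 0.29 for Sult1b1 (adjusted p = 0.099), were close to those of day 1 and did not pass. Without the 3 arrays they were 0.40 (adjusted p = 0.000208) and 0.43 (adjusted p = 0.000388). Sult1c3 read 3756, 4979, 5405, 5543 and 5661 in air and 4013, 4237, 4466, 4660 and 5949 after ozone, a difference of -0.12 (adjusted p = 0.739), or -0.31 (adjusted p = 0.00409) without the 3 arrays.

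The mu-class genes Gstm1, Gstm2 and Gstm3 had their lowest ozone levels relative to air at day 2. Gstm1 stood at -0.24 (adjusted p = 0.134), Gstm2 at -0.30 (adjusted p = 0.0819) and Gstm3 at -0.14 (adjusted p = 0.0791), none of them called. All 5 ozone arrays of each lay below the air mean, and those of Gstm3 (142, 146, 148, 152 and 154) lay below all its air arrays (155, 161, 167, 169 and 173). Without the 3 arrays the differences were -0.34, -0.39 and -0.17, and each was called (adjusted p = 0.0019, 0.00356 and 0.00884). Gstz1 read 2314, 2329, 2404, 2503 and 2566 in air and 2600, 2773, 2802, 2943 and 3186 after ozone. Its groups did not overlap, but the difference of 0.24 did not pass (adjusted p = 0.068); without the 3 arrays it was 0.22 (adjusted p = 0.0371). No UDP-glucuronosyltransferase was called with or without those arrays, and with all arrays their differences lay between -0.05 and 0.09, with 0 of 7 at unadjusted p under 0.05.

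At 18 h after the exposure of day 2, Gstz1 alone was called, among 35 members tested. It rose, beside 1.17% of all genes called, 0.86% higher. Gstz1 is the maleylacetoacetate isomerase of tyrosine breakdown and also metabolises dichloroacetate. It read 2145, 2333, 2452, 2528 and 2707 in air and 2817, 2923, 3063, 3195 and 3255 after ozone. Every ozone array was above every air array, and the log2 difference was 0.33 (SE 0.06, fold 1.25, adjusted p = 0.00918). Fitted on the arrays of this harvest alone, the same difference had an adjusted p of 0.0809.

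The other enzymes gave smaller or more scattered differences at 18 h. The lowest was that of Gstm2, -0.26 (adjusted p = 0.158), and Gstm1 stood at -0.18 (adjusted p = 0.366). Neither was called, though all 5 ozone arrays of each lay below the air mean. Gstp3 read 3441, 3560, 3627, 4304 and 4389 in air and 4478, 4691, 4881, 4916 and 5339 after ozone, so the groups did not overlap, yet it did not pass (log2 difference 0.33, SE 0.11, adjusted p = 0.126). Without the 3 arrays it was 0.38 (adjusted p = 0.00504). Gstp1 stood at 0.17 (adjusted p = 0.27), with all 5 ozone arrays above the air mean. Gstt2 read 1312, 1414, 1430, 1542 and 1601 in air and 1323, 1361, 1472, 1564 and 1586 after ozone, a difference of 0.0011 with fully overlapping groups. The probe sets shared by Gstt1 and Gstt3 stood lower, at -0.38 and -0.62, and were not called (adjusted p = 0.135 and 0.114). Sult1a1 and Sult1b1 stood at -0.18 and -0.17, with all 5 ozone arrays of each below the air mean, and were not called (adjusted p = 0.378 and 0.459). Sult2a2 had the largest difference of all members, 0.38, with the largest error (SE 0.31). Without the set of 4 arrays, 5 members were called at this harvest (Gstp1, Gstp3, Gstz1, Sult1a1 and Sult1b1), beside 4.95% of all genes. That set leaves out 18 h air replicate 1, which was nearer to 18 h ozone, so the gap between the groups widens by construction.

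The ozone effect, the ozone minus air difference at 1 harvest, was then compared between harvests. Since each such test uses both groups of each harvest, the tests share their arrays with the comparisons above. Between day 1 and 18 h after day 2 the effect differed in 10 of 35 members, 7 upward and 3 downward, beside 20.4% of all genes (12.4% and 7.96%). For 9 of the 10 the call held under all 35 other settings and array sets tried, and Ugt2b lost it under 19. Gstt2 moved from -0.80 to 0.0011, a change of 0.80 (SE 0.15, adjusted p = 0.000358). Gstp3 moved from -0.34 to 0.33, a change of 0.67 (adjusted p = 0.00128), and Gstp1 from -0.17 to 0.17, a change of 0.34 (adjusted p = 0.00827). Both pi-class genes were thus below air on day 1 and above it at 18 h on average, although neither was called at 18 h.

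Sult1c3 changed by 0.59 (adjusted p = 0.00169), Gstz1 by 0.36 (adjusted p = 0.00299), Gsto1 by 0.28 (adjusted p = 0.00144) and Ugt2b by 0.20 (adjusted p = 0.0394). Downward, Gstm4 moved from 0.37 to -0.16, a change of -0.53 (adjusted p = 0.00103). Sult1b1 and Sult1a1 changed by -0.47 and -0.45 (adjusted p = 0.00554 and 0.00517). No microsomal transferase was called here, nor any UDP-glucuronosyltransferase other than Ugt2b.

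Between day 1 and day 2 the effect differed in 3 members, 2 upward and 1 downward, beside 5.09% of all genes (3.13% and 1.96%). Gstt2 changed by 0.54 (adjusted p = 0.0332), Gsto1 by 0.22 (adjusted p = 0.0333) and Gstm4 by -0.39 (adjusted p = 0.0404). Gsto1 read 2217, 2229, 2392, 2422 and 2469 in day 2 air and 2254, 2296, 2380, 2409 and 2507 in day 2 ozone, a difference of 0.01. Gstm4 likewise read 294, 332, 337, 339 and 350 in air and 256, 323, 331, 347 and 386 after ozone, a difference of -0.02. None of the 3 calls was left without the 3 arrays nearer another group, when the changes were 0.31, 0.18 and -0.28. The count was 1 without any single one of day 1 air replicates 2, 3 and 6, day 1 ozone replicates 2 and 6, and day 2 air replicates 2 and 5. It was 0 without day 2 ozone replicate 5 and 5 without day 1 ozone replicate 1. These counts are of members alone, without the share of all genes under the same setting. Between day 2 and 18 h no member was called, beside 0.0086% of all genes, and 4 had an unadjusted p under 0.05. There 4 were called without day 2 air replicate 5, beside 1.86% of all genes, and 3 without day 2 ozone replicate 5, beside 0.705%.

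The air groups served as background for harvest time. No member was called between air of day 2 and air of day 1 (0.0086% of all genes, 4 members at unadjusted p under 0.05), nor between air at 18 h and air of day 2 (0.12% of all genes, 7 members at unadjusted p under 0.05). The largest air difference was that of Sult2a6, 0.49 from day 2 to 18 h (adjusted p = 0.334). These comparisons use the same air arrays as the ozone comparisons.

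**Figure D3:**
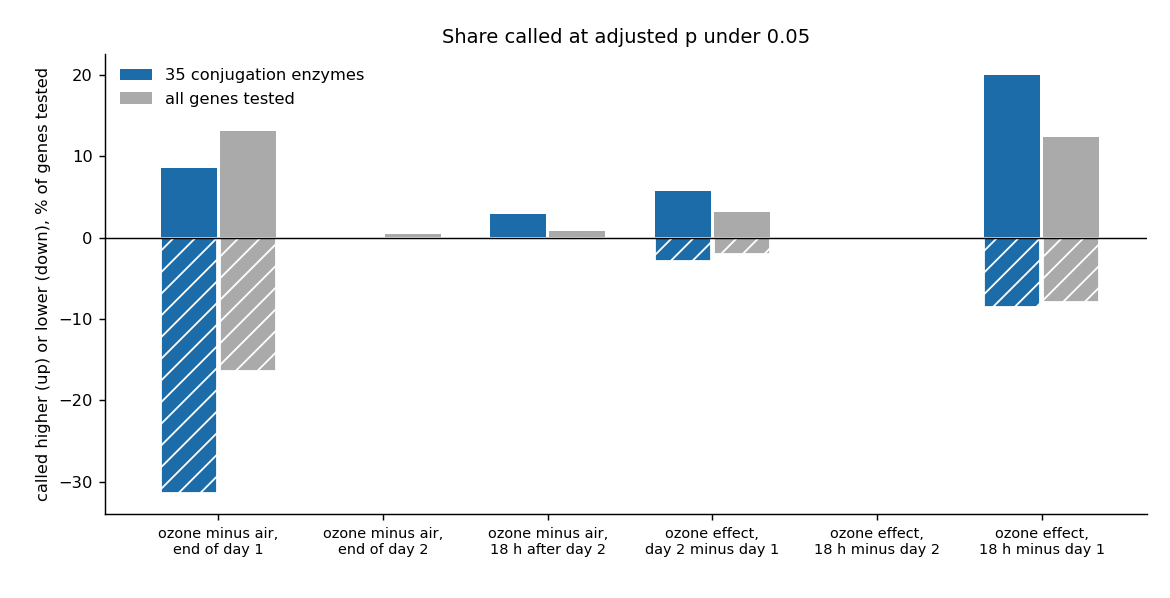
Percent of genes called higher (above 0) or lower (below 0, hatched) in each comparison, for the 35 enzymes and for all 11625 genes tested. On day 1, 11 enzymes were called lower and 3 higher; in the comparison of 18 h with day 1, 7 were called higher and 3 lower.

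Other genes of conjugation, from a list of 49 of which 43 were tested, included genes with differences beyond those of the enzymes. On day 1, 19 of the 43 fell and 3 rose, beside 16.4% of all genes lower and 13.1% higher. Among 11 genes that supply co-substrates, 6 fell and none rose. Gclm (-1.73, adjusted p = 7e-08) and Gclc (-0.93, adjusted p = 3.29e-06), the subunits of the enzyme that starts glutathione synthesis, were among them. So were Ugp2 (-1.18) and Ugdh (-0.89), which make UDP-glucose and UDP-glucuronate. Papss1, which makes the sulfate donor PAPS, fell by less (log2 difference -0.18). The median of these 11 was -0.18.

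Beside each count of the lists that follow, 16.4% of all genes were called lower and 13.1% higher on day 1. Of 12 genes tested from a list of other conjugating and related enzymes, 5 fell and 2 rose on day 1. The falls include Ephx1 (-0.57, adjusted p = 0.0155), an epoxide hydrolase, which forms no conjugate. The glycine acyltransferase Glyat (-1.20) and the bile acid amidating enzyme Baat (-0.85) fell, and the nicotinamide methyltransferase Nnmt rose (1.32). Of 5 exporters, Abcc2, the canalicular pump for conjugates, fell (-0.87), and the other 4 were not called. Of 4 genes that cleave conjugates, Arsa fell (-0.28). Of 11 genes tested from a list of transcription factors, 6 fell and 1 rose. The list includes Keap1, which is not itself a transcription factor. Nfe2l2, which encodes Nrf2, fell (-0.53, adjusted p = 0.00147), as did its partner Keap1 (-0.28) and the glucocorticoid receptor gene Nr3c1 (-0.38, adjusted p = 0.00513). Ahr, Nr1i3 and Ppara were the others that fell. The xenobiotic receptor Nr1i2 was the only gene of this list called higher (0.70).

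On day 2 none of the 43 was called by limma, while 18 had an unadjusted p under 0.05. That count also rested on few arrays. Without day 2 air replicate 5, 10 fell and 2 rose (8.4% of all genes called), and without day 2 ozone replicate 5, 7 fell and 1 rose (4.35%). Without the 3 arrays 15 fell and 4 rose (13.2%). At 18 h 3 rose, beside 0.86% of all genes: Nfe2l2 (0.52, adjusted p = 0.0496), the arylsulfatase Arsb (0.28, adjusted p = 0.0224) and the exporter Abcg2 (0.21, adjusted p = 0.015). Between day 1 and 18 h the ozone effect differed in 19 of the 43, 16 upward and 3 downward, beside 20.4% of all genes (12.4% and 7.96%). Gclm changed by 1.90 and Glyat by 1.44, and Nnmt changed by -1.48 and Nr1i2 by -0.92. Between day 1 and day 2 it differed in 9, 8 upward and 1 downward, beside 5.09% of all genes (3.13% and 1.96%), with Gclm at 1.47, Inmt at 0.88 and Nnmt at -0.89. Between day 2 and 18 h none of the 43 differed by limma with all arrays (11 at unadjusted p under 0.05), and 15 did without the 3 arrays, 12 upward and 3 downward, beside 8.58% of all genes.

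**Figure D4:**
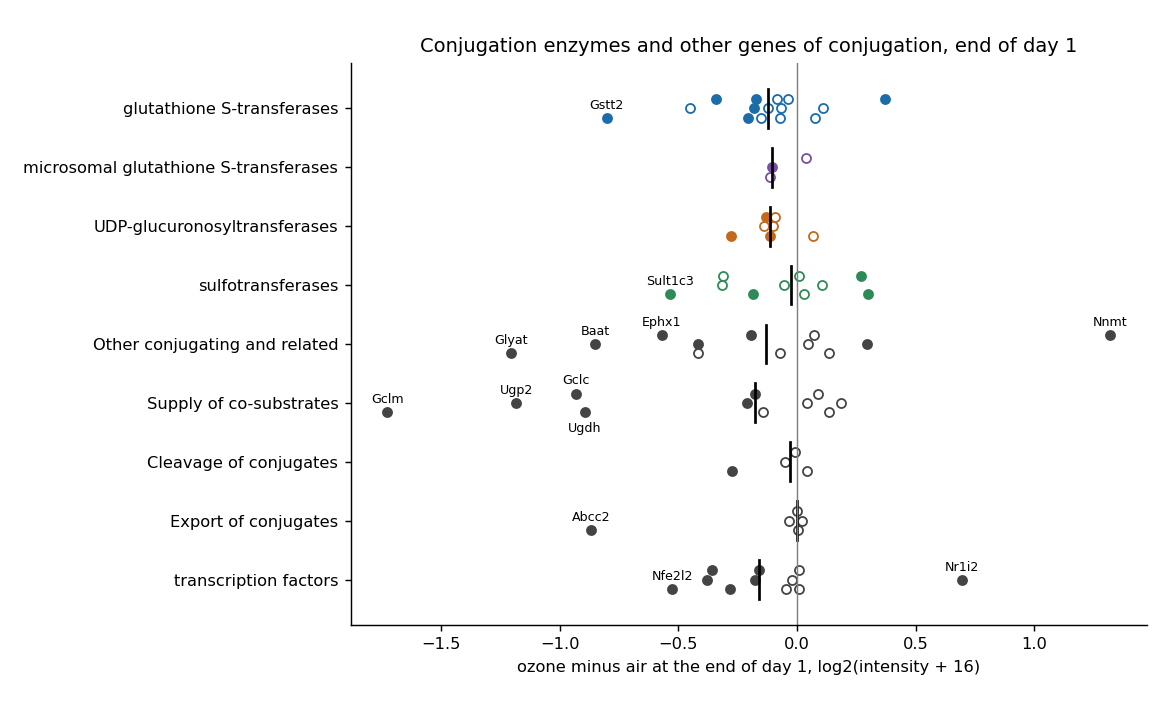
Ozone minus air difference of day 1 in log2(intensity + 16) for the 35 enzymes by family and for 43 other genes of conjugation by role. Each point is a gene, filled where adjusted p was under 0.05, and black bars are medians; Gclm at -1.73 and Nnmt at 1.32 mark the ends of the range.

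Markers of liver cell types were read beside these results. With all arrays, none of the 6 hepatocyte markers was called by limma at any harvest. Unadjusted p was under 0.05 in 1 on day 1, 1 on day 2 and 2 at 18 h. Tat stood at 0.47 on day 1 (limma adjusted p = 0.129) and at -0.89 at 18 h (adjusted p = 0.0718). Without the 3 arrays nearer another group, Tat was called higher on day 1 and lower at 18 h. The summed intensity of the 6 was 46356 to 48433 in day 1 air and 45405 to 49395 in day 1 ozone. Of 8 macrophage markers tested from 10 listed, 2 fell on day 1 (Lyz2, -0.63, and Adgre1, -0.27), 1 on day 2 (Lyz2, -0.40) and none at 18 h. Their summed intensity was 5120 to 6217 in day 1 air and 3994 to 6322 in day 1 ozone. It was 3786 to 6239 in day 2 air and 3251 to 4557 in day 2 ozone. At 18 h it was 4766 to 5352 in air and 3648 to 4681 in ozone, without overlap. The median difference of the 8 markers was -0.16 on day 1, -0.11 on day 2 and -0.22 at 18 h. On day 1, 1 of 4 endothelial, 1 of 6 stellate, 1 of 5 cholangiocyte and 1 of 6 pancreas and adipose markers fell, and no neutrophil marker was called of 2 tested. Beside the counts of all marker lists on day 1, 16.4% of all genes were called lower and 13.1% higher. With all arrays, 0.705% of all genes were called on day 2 and 1.17% at 18 h. Whether any marker list differs from these shares was not tested. At 18 h the endothelial Stab2 rose (0.28) and Cela1, of the pancreas and adipose list, fell (-0.41). Without the 3 arrays, the stellate markers Col3a1 and Lrat and Cela1 also fell on day 2. The share of all genes called on day 2 without those arrays is given above. Between day 1 and 18 h the ozone effect differed for Tat, a hepatocyte marker (-1.37, adjusted p = 0.00447), and for Lyz2 (0.64), Stab2 (0.48) and the cholangiocyte marker Epcam (0.53). In that comparison 20.4% of all genes were called. From day 1 to day 2 the ozone effect differed for Epcam (0.40, adjusted p = 0.0334), beside 5.09% of all genes. No probe set in the table was at 0; the lowest value was 30.5. The part of these cells in the enzymes' differences was not tested, and in such bulk RNA fewer cells of a type and less RNA per cell cannot be told apart.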

How the data were processed

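Rat liver RNA was measured on 32 single-colour Affymetrix HT RG-230 PM arrays. The deposited values are linear intensities. Per the submitters' processing notes, Affymetrix Expression Console and its PLIER algorithm were used; for both tools the version, and for PLIER the background correction and scaling, were not given in the sources used here. No further scaling was applied. Of 31139 probe sets, 97 were controls, 19062 had 1 gene entry, 573 several entries and 11407 none. Gene names are those of the platform's annotation; 39 of 40 members' Entrez IDs were in RefSeq's GRCr8 table, none under another symbol. A further 9 probe sets of these families, with several gene entries, were not members. Among them was a probe set that names Gsta4 in both of its entries, so Gsta4 was not a member.

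Each gene was read from its brightest probe set. Genes under the 25th percentile of mean log2 level over all probe sets (7.11) were left out, which kept 11625. limma 3.58.1 (R 4.3.3) was fitted to log2(intensity + 16) with 1 mean for each of 6 groups, lmFit and eBayes with a trend, and Benjamini-Hochberg adjustment within each of 8 comparisons, two-sided. The procedure was tested on simulated data. Groups and replicate numbers came from the sample titles; no array pair was identical. Arrays carry no count depth, so their number limits the precision.

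Genes named with full values were, by family, the 2 of highest mean signal and, by comparison, the 3 largest rises and falls among called members; all other members are named to account for them, after their values were seen, and so are alternatives by probe set. The members and lists were chosen with earlier results of these data known. The alternatives changed the offset, filter, normalization, probe-set rule, trend, arrays used and weights, and added a replicate block. Probe sets of several genes, and the gene and marker lists without the arrays nearer another group, were tested in alternatives chosen after seeing the data. Promoters were searched with Python 3.11.15. Scan dates and batches were not used.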

Additional observations from a re-analysis of the deposited data

Results flagged for a closer look

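In 5 of 84 tests, over 14 enzymes and 6 groups, an array lay apart from the rest of its group by Dixon's ratio; these were 3 different arrays. This is a ratio that chance alone flags in about 1 of 20 groups. Day 2 air replicate 5 was lowest for Gstp3 (log2 level 11.6, nearest 12.08), for Gstt2 (9.77, nearest 10.48) and for Mgst1 (12.96, nearest 13.11). Day 2 ozone replicate 5 was highest for Gstp3 (12.34, nearest 11.81). Replicate 3 of air at 18 h was lowest for Ugt2b15 (11.78, nearest 12.04).

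The ozone effect differed between day 1 and day 2, by limma's test of the difference, for Gstt2 (0.54 on the log2 scale), Gsto1 (0.22) and Gstm4 (-0.39). Between day 1 and 18 h after day 2 it differed for Gstt2 (0.80), Gstp3 (0.67), Sult1c3 (0.59), Gstz1 (0.36), Gstp1 (0.34), Gsto1 (0.28), Ugt2b (0.20), Gstm4 (-0.53), Sult1b1 (-0.47) and Sult1a1 (-0.45).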

How the results depend on the processing

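The enzymes named by the rule gave 16 results, all called with all arrays. Of their 488 alternative values 449 kept direction and call, 39 lost the call and none changed sign; 38 of the losses were among the 3 results of day 2 minus day 1, and the other was Gstz1 at 18 h. Leaving out 1 array at a time gave 8 to 17 members called on day 1, 0 to 7 on day 2, 1 at 18 h, 0 to 5 for day 2 minus day 1, 0 to 4 for 18 h minus day 2 and 9 to 11 for 18 h minus day 1. Without both arrays of low nonspecific signal 9 were called on day 1 and 1 for day 2 minus day 1. With array weights 9 were called on day 2, 4 at 18 h, 5 for day 2 minus day 1, 5 for 18 h minus day 2 and 4 for air 18 h minus air day 2. Without 3 arrays nearer another group these counts were 9, 2, 0, 5 and 2, and without 4 they were 9, 5, 0, 5 and 3. With only the groups compared 0 were called at 18 h and 1 for day 2 minus day 1, where a median filter gave 5. The cause was not tested. The counts of this section are of members alone, without the share of all genes under the same setting. They do not show whether the enzymes gained or lost calls more than other genes did.

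No pairing of the arrays by replicate number was visible. Of 16 same-numbered pairs of deviations, 1 correlated above 0.1 (range -0.58 to 0.26) and 1 correlated best with its own number. A weak pairing could be missed by such correlations. With the replicate block, 14 members were called on day 1, 0 on day 2, 1 at 18 h, 2 for day 2 minus day 1 and 9 for 18 h minus day 1. These counts, too, are of members alone.

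Signal over background limits the dim members: nonspecific probes read 54.3 to 92.0, so changes of enzymes read near 100 are understated.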
